A study of Mus musculus with 6 samples.

Results

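Fc gamma receptors are the receptors through which macrophages sense antibody of the IgG class. The genes followed here are the activating receptors Fcgr1, Fcgr3 and Fcgr4, the inhibitory receptor Fcgr2b, the shared signalling chain Fcer1g and the neonatal Fc receptor Fcgrt. Each of these 6 genes had 1 probe set listed with it alone, so 6 probe sets of 41345 on the array, or 6 of the 22180 genes with a probe set of their own, were read. The set was chosen by its family name with the difference of Fcgr1 between the 2 groups of arrays already known, and the values of its members are therefore a description of these arrays and no independent test.

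Expression was measured in RAW 264.7 cells, a mouse macrophage-like line, on 6 arrays. All cells were transfected with a locked nucleic acid GapmeR at 50 nM, that is an antisense oligonucleotide with which RNase H cuts a matching RNA, and RNA was taken after 48 h. The GapmeR was a non-targeting one in 3 samples (Control) and one against the long noncoding RNA Mist in 3 (Mist-targeted). The labels name 1 Mist GapmeR and no untransfected cells, and the level of Mist itself was not analysed here, so the groups rest on their labels.

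In macrophages, activating Fc gamma receptors bind IgG on a target and signal through the immunoreceptor tyrosine-based activation motif (ITAM) of the gamma chain encoded by Fcer1g, which Src family kinases and Syk read out. Fcgr2b carries an inhibitory tyrosine motif in its own tail, recruits the inositol phosphatase SHIP1 (Inpp5d) and opposes that signal, so that the balance of both kinds sets the threshold for phagocytosis and cytokine release. FcRn, the product of Fcgrt with beta-2 microglobulin, binds IgG inside endosomes and returns it to the cell surface. Fcgr1, the high-affinity receptor CD64, is a textbook target of interferon gamma.

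The 250 bases before the start sites of Fcgr1, of the activating receptor gene Fcgr4 and of the inhibitory gene Fcgr2b are shown because the comparison turns on these 3 receptors. They are RefSeq sequences of build GRCm38.p6, written 5′ to 3′ on the gene's strand. Capitals mark matches on either strand to TTCNNNGAA, the core of the gamma-activated site of STAT dimers, to TTTC followed by 2 free bases and TTTC, a core of the interferon-stimulated response element, and to GAGGAA, a core of sites of the macrophage factor PU.1.

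Fcgr1, chr3:96293970-96294219, minus strand: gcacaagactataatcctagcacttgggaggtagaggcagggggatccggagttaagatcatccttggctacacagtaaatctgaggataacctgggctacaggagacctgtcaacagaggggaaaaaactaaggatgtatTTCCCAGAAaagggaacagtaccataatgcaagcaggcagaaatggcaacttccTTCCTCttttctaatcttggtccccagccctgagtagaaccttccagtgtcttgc
Fcgr4, chr1:171018676-171018925, plus strand: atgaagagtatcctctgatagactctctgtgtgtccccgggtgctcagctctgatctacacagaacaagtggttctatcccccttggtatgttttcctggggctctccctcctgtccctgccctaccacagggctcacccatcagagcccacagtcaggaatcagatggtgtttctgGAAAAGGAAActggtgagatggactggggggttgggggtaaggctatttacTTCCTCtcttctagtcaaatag
Fcgr2b, chr1:170976072-170976321, minus strand: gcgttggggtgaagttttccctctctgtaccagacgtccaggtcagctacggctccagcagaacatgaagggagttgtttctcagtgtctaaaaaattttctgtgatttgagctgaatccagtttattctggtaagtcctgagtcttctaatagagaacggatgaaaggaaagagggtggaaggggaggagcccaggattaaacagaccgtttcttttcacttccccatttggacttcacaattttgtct

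The Fcgr1 window held TTCCCAGAA, a match to TTCNNNGAA, at bases -109 to -101 from the start site. It also held TTCCTC, which is GAGGAA on the opposite strand, at bases -55 to -50. No other member had TTCNNNGAA in its window of 250 bases before and 50 after the start, a sequence found in 8.30% of all 32851 such windows. Fcgr4 was the only member with the core of the interferon-stimulated response element, as GAAAAGGAAA on the opposite strand at bases -73 to -64, where 3.44% of all windows hold it. GAGGAA was found for Fcgr1, for Fcgr4 at bases -22 to -17 and for Fcgr3 at bases -6 to -1 of the first of its 2 listed windows, which are shifted copies of each other, and 28.3% of all windows hold it. The windows of Fcgr2b, Fcer1g and Fcgrt held none of the 3 sequences. The matches were separate from one another. These are letters in a window and say nothing of binding in these cells.

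Of the 6 genes, Fcgr1 was about doubled on the Mist-targeted arrays, while the other 5 differed by no more than 0.17 on the log2 scale in either direction. Fcgr1 stood at 9.07, 9.14 and 9.06 (log2 expression) on Control arrays 1, 2 and 3 and at 10.19, 10.01 and 10.10 on Mist-targeted arrays 1, 2 and 3. The groups were far apart: the lowest Mist-targeted array lay 0.87 above the highest Control array. The means were 9.09 ± 0.046 and 10.10 ± 0.089 (SD, n = 3 each), a log2 difference of 1.01 ± 0.086 (SE; 95% interval 0.81 to 1.21) or 2.01-fold. That places Fcgr1 as the 20th highest rise of the 22180 genes. In bulk RNA such a value cannot tell more expressing cells from more RNA per cell.

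In limma's fit over all 41345 probe sets, 1 of the 6 members, Fcgr1, had an adjusted p under 0.05 (adjusted p = 0.012), and 0.415% of all 22180 genes did. With only the probe sets listed in the annotation tested, Fcgr1 was again the 1 member called (adjusted p = 0.00014), and 2.9% of all genes were. Since the set was chosen with that contrast known, nothing is read from these counts. The call needs nearly all arrays. Leaving out 1 array at a time left the difference of Fcgr1 between 0.97 and 1.05, but its adjusted p lay between 0.035 and 0.090, and it stayed under 0.05 in 1 of the 6 fits, that without Mist-targeted replicate 2. It was above 0.05 without Control replicate 1, 2 or 3 (0.090, 0.078 and 0.079) and without Mist-targeted replicate 1 or 3 (0.059 and 0.086). The labels do not say whether replicates came from separate cultures, and these p-values measure the spread between samples that may be technical.

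**Figure D1:**
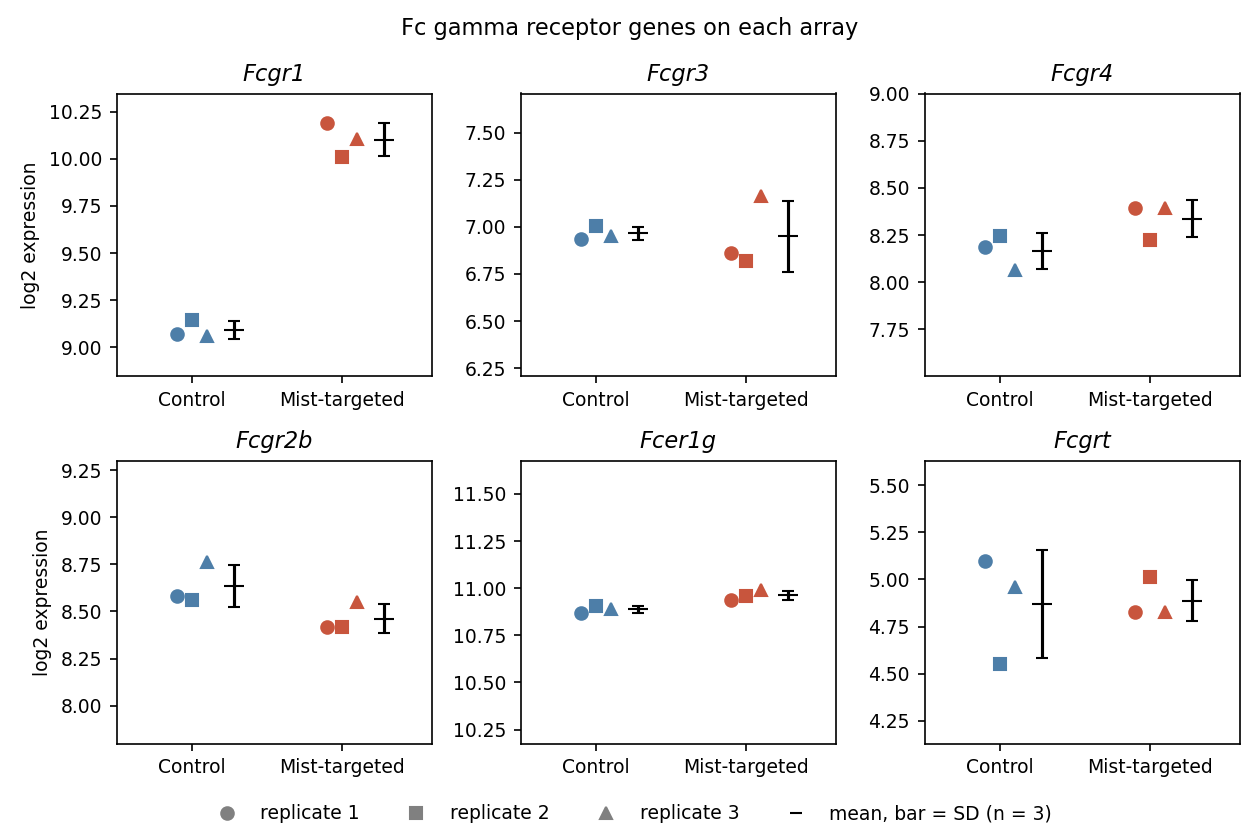
Log2 expression of the 6 genes on each array, 1 panel per gene, with the same span on every vertical axis; symbols are replicates 1 to 3, and the bar beside them is the mean with its SD (n = 3). The groups of Fcgr1 are 0.87 apart, those of Fcgr2b and Fcer1g are apart by 0.012 and 0.035, and those of Fcgr3, Fcgr4 and Fcgrt overlap.

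The other activating receptors did not follow Fcgr1. Fcgr4, a receptor of intermediate affinity found on myeloid cells, was at 8.19, 8.25 and 8.06 on the Control arrays and at 8.39, 8.23 and 8.39 on the Mist-targeted arrays. Mist-targeted replicate 2 lay inside the Control range, so the groups overlapped. The difference was 0.17 ± 0.094 (SE; 95% interval -0.05 to 0.39; limma, adjusted p = 0.64). Fcgr3, the low-affinity receptor CD16, was at 6.94, 7.005 and 6.95 on the Control arrays and at 6.86, 6.82 and 7.17 on the Mist-targeted arrays. Mist-targeted replicate 3 was the highest of the 6 and the other 2 Mist-targeted arrays were the lowest. Its difference was -0.02 ± 0.11 (SE; 95% interval -0.27 to 0.24; limma, adjusted p = 0.99), and the sign turned without Control replicate 2 or Mist-targeted replicate 1 or 2, up to 0.05. The upper ends of both intervals lie below the lower end of that of Fcgr1.

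Fcgr2b, the inhibitory receptor, was at 8.58, 8.56 and 8.76 on the Control arrays and at 8.42, 8.42 and 8.55 on the Mist-targeted arrays. All 3 Mist-targeted arrays were lower than all 3 Control arrays, but only by 0.012 at the closest pair. The difference was -0.17 ± 0.094 (SE; 95% interval -0.39 to 0.05) and did not pass the test (limma, adjusted p = 0.64). The interval therefore holds both no change and a difference down to -0.39. Leaving out 1 array at a time gave -0.22 to -0.11, the smallest of these without Control replicate 3. Fcgr2b and Fcgr3 are paralogs with closely similar extracellular domains. Probe sequences were not used here, so how far their probe sets share signal is unknown.

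The signalling chain and the transport receptor showed no called difference. Fcer1g was at 10.87, 10.90 and 10.89 on the Control arrays and at 10.94, 10.96 and 10.99 on the Mist-targeted arrays. The groups did not overlap, lying 0.035 apart, and the difference was small, 0.07 ± 0.076 (SE; 95% interval -0.10 to 0.25; limma, adjusted p = 0.84). Fcgrt was at 5.10, 4.55 and 4.96 on the Control arrays and at 4.83, 5.01 and 4.83 on the Mist-targeted arrays. Control replicate 2 was the lowest of the 6 and the groups overlapped. The difference was 0.02 ± 0.15 (SE; 95% interval -0.33 to 0.37; limma, adjusted p = 0.99), and without Control replicate 2 it was -0.14. Fcgrt read little above the array medians. Its background was not measured, and a change at so low a reading may be understated. B2m, which encodes the partner chain of FcRn, differed by 0.07 ± 0.086 (adjusted p = 0.87).

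Across the 6 genes 4 differences were positive and 2 negative, with a median of 0.05 against 0.0069 over all 22180 genes, of which 52.2% were positive. The groups did not overlap for 3 of the 6 (Fcgr1 and Fcer1g higher, Fcgr2b lower), where 20.0% of all genes did not overlap, and nothing is read from this count either.

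Activating and inhibitory genes were set against each other by their changes on each array, since levels of different probe sets cannot be compared. Each gene was expressed as its deviation from its own Control mean, and the deviation of Fcgr2b was subtracted. For Fcgr1 this gave 1.31, 1.14 and 1.10 on Mist-targeted arrays 1, 2 and 3, against 0.03, 0.13 and -0.16 on the Control arrays. The change of Fcgr1 thus exceeded that of Fcgr2b on every Mist-targeted array, by a mean of 1.18 ± 0.12 (SD, n = 3) or 2.27-fold. For Fcgr4 the values were 0.44, 0.28 and 0.31, against 0.08, 0.15 and -0.23 on the Control arrays. The mean of 0.34 ± 0.087 (SD, n = 3) came in equal parts from Fcgr4, at 0.17 above its Control mean, and Fcgr2b, at 0.17 below it. For Fcgr3 the values were 0.11, 0.07 and 0.28 against 0.03, 0.11 and -0.14, and the groups overlapped. Fcer1g gave 0.27, 0.29 and 0.19 against 0.03, 0.09 and -0.12, and Fcgrt gave 0.17, 0.36 and 0.04 against 0.28, -0.25 and -0.04. Control replicate 3, which had the highest Fcgr2b value, gave the lowest Control value for Fcgr1, Fcgr3, Fcgr4 and Fcer1g. These 5 contrasts share the Fcgr2b values and are given without a test.

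**Figure D2:**
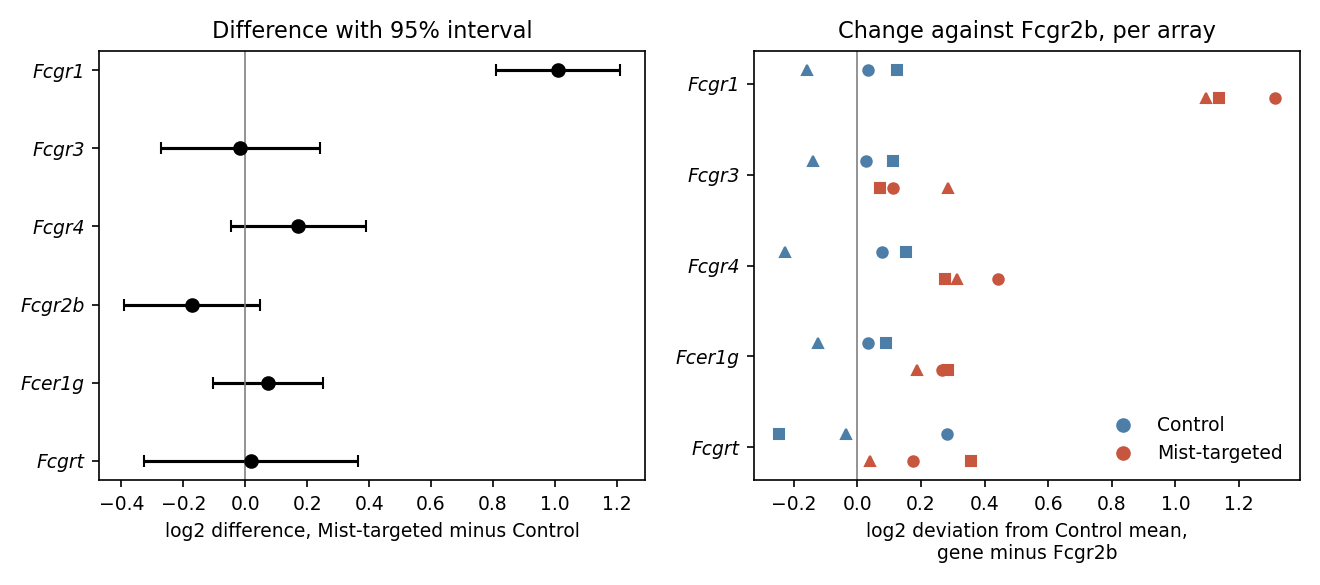
Left, the log2 difference (Mist-targeted minus Control) of each gene with its 95% interval from limma (n = 3 per group); right, for each array, the gene's log2 deviation from its Control mean minus that of Fcgr2b, with circles, squares and triangles for replicates 1, 2 and 3. The interval of Fcgr1 runs from 0.81 to 1.21 and those of the other 5 genes hold 0; on the right the Mist-targeted arrays of Fcgr1 lie between 1.10 and 1.31.

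The 6 genes lie on 3 chromosomes. In RefSeq's gene order Fcgr2b, Fcgr4, Fcgr3 and Fcer1g lie on chromosome 1, the first 3 of them directly beside each other among measured genes, while Fcgr1 is on chromosome 3 beside a histone gene cluster and Fcgrt on chromosome 7. The 5 measured genes on each side of each member gave 36 neighbours that are not members. None of the 36 was called, where 0.415% of all genes were (limma). An unadjusted p under 0.05 was reached by 3 of the 36 and by 11.03% of all genes, the share against which such counts are to be read throughout, and their median difference was 0.0062. The 10 neighbours of Fcgr1 had differences between -0.10 and 0.32, with a median of -0.0074, so the difference of Fcgr1 was not seen in the genes around it.

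The genes whose profiles over the 6 arrays were nearest to that of Fcgr1, each as deviation from its Control mean, were Cd36, Siglec1, Snora30, Apol9a and Gbp9. The Euclidean distances from Fcgr1 were 0.17, 0.17, 0.20, 0.26 and 0.26 on the log2 scale. Cd36 encodes a scavenger receptor and Siglec1 the sialic acid-binding macrophage receptor sialoadhesin. Snora30 is a small nucleolar RNA, Apol9a belongs to the apolipoprotein L family and Gbp9 to the guanylate-binding proteins. Their differences were 1.07 ± 0.085, 1.02 ± 0.093, 1.02 ± 0.11, 1.001 ± 0.085 and 1.08 ± 0.088 (SE, n = 3 per group). A gene near Fcgr1 by this measure has a difference of like size by construction.

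Beyond the members, 113 of 121 genes on 8 lists of the wider Fc receptor pathway were read in the same fit; the other genes had no probe set listed with them alone and were not analysed here. The call of Stat2, which is on 1 of the lists, was already known when the lists were made. Of the 113 2 rose and 1 fell, or 2.65% against 0.415% of all genes, and their median difference was 0.0043. The groups did not overlap for 31.9% of them against 20.0% of all genes. These shares were not matched for level. All 27 activating and 20 of 21 inhibitory signalling genes read above every array's median, but only 2 of 11 other Fc receptor genes did. The lists were chosen with earlier results known, and nothing is read from the shares. Trim21 rose, the cytosolic receptor that binds the Fc part of antibody carried into the cell. It went from 6.85, 6.94 and 6.89 on the Control arrays to 7.58, 7.74 and 7.68 on the Mist-targeted arrays, with no overlap. Its difference was 0.77 ± 0.084 (SE; limma, adjusted p = 0.023). The other 10 of 11 other Fc receptor genes were not called. Among these Fcrl1, named after its value was seen, went from 9.54 ± 0.069 to 9.90 ± 0.11 (mean ± SD, n = 3 each; adjusted p = 0.20). None of the 3 called pathway genes was called when any 1 array was left out: adjusted p values lay between 0.081 and 0.13 for Trim21, between 0.091 and 0.19 for Gab2 and between 0.091 and 0.17 for Stat2.

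Among the activating signalling genes Gab2 fell, which encodes a docking adaptor for phosphatidylinositol 3-kinase. It went from 8.92, 9.10 and 8.94 on the Control arrays to 7.90, 8.23 and 8.20 on the Mist-targeted arrays. The groups were well apart, Mist-targeted replicate 1 was the lowest, and the difference was -0.88 ± 0.12 (SE; limma, adjusted p = 0.043). The other 26 of the 27 measured of 29 genes of this list were not called. Over all genes 0.415% were called (limma). An unadjusted p under 0.05 was reached by 8 of the 27, against 11.03% of all genes. The groups did not overlap for 12 of the 27 (4 higher, 8 lower), against 20.0% of all genes. Of the 27, 10 had positive and 17 negative differences, with a median of -0.10, where 52.2% of all genes were positive. The list was chosen with earlier results known, and nothing is read from these shares. Syk, the kinase that binds the ITAM, was named after its value was seen and differed by -0.15 ± 0.12 (adjusted p = 0.78).

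Of the receptor and adaptor genes listed with the gamma chain, 0 of 10 measured of 11 were called (limma). An unadjusted p under 0.05 was reached by 3 of them, where 11.03% of all genes reach it. Of the 10 differences 1 was positive and 9 were negative. The C-type lectin genes Clec4e (Mincle) and Clec4n (Dectin-2), whose products pair with the chain of Fcer1g, had values in opposite directions. Clec4e was at 10.44, 10.44 and 10.51 on the Control arrays and at 9.96, 9.72 and 9.70 on the Mist-targeted arrays (adjusted p = 0.056). Clec4n was at 4.89, 4.86 and 5.22 on the Control arrays and at 5.72, 5.67 and 5.63 on the Mist-targeted arrays (adjusted p = 0.078). The groups of both were apart, and the differences were -0.67 ± 0.098 and 0.68 ± 0.11 (SE). With only listed probe sets tested both were called (limma, adjusted p = 0.0030 and 0.0052), where 2.9% of all genes were. The Control mean of Clec4n, 4.99, lay within the range of Control means of markers of other kinds of cell (3.58 to 5.07). Its background was not measured, and a change at so low a reading may be understated. Tyrobp, the other ITAM adaptor of myeloid cells, named after its value was seen, differed by -0.01 ± 0.12.

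On the inhibitory side 0 of 21 genes were called (limma; 2 at an unadjusted p under 0.05, near the 11.03% of all genes), with a median of 0.08. The adaptor gene Dok2 differed by 0.41 ± 0.092 (adjusted p = 0.16) and the ubiquitin ligase gene Cbl by 0.21 ± 0.087 (adjusted p = 0.48). The phosphatase genes Inpp5d and Ptpn6, named after their values were seen, differed by -0.05 ± 0.080 and 0.09 ± 0.084 (adjusted p = 0.92 and 0.81). Inpp5d encodes SHIP1, the effector of Fcgr2b, and its groups overlapped.

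Of the 25 measured of 28 genes of the phagocytic cup and actin 0 were called (limma; 4 at an unadjusted p under 0.05, against 11.03% of all genes), with a median of 0.03. Dock2, an activator of Rac, differed by -0.28 ± 0.081 and Was, an activator of actin branching, by 0.29 ± 0.085 (adjusted p = 0.27 for each). Of the 4 measured of 5 genes of the phagosome oxidase 0 were called (limma; 2 at an unadjusted p under 0.05, against 11.03% of all genes), all 4 differences were negative and the median was -0.22. Cybb, which encodes its catalytic subunit, was at 12.30, 12.31 and 12.25 on the Control arrays and at 11.77, 11.85 and 11.85 on the Mist-targeted arrays. Those groups did not overlap (-0.46 ± 0.079, adjusted p = 0.080), and neither did those of the cytosolic subunit gene Ncf1 (-0.41 ± 0.11, adjusted p = 0.22).

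**Figure D3:**
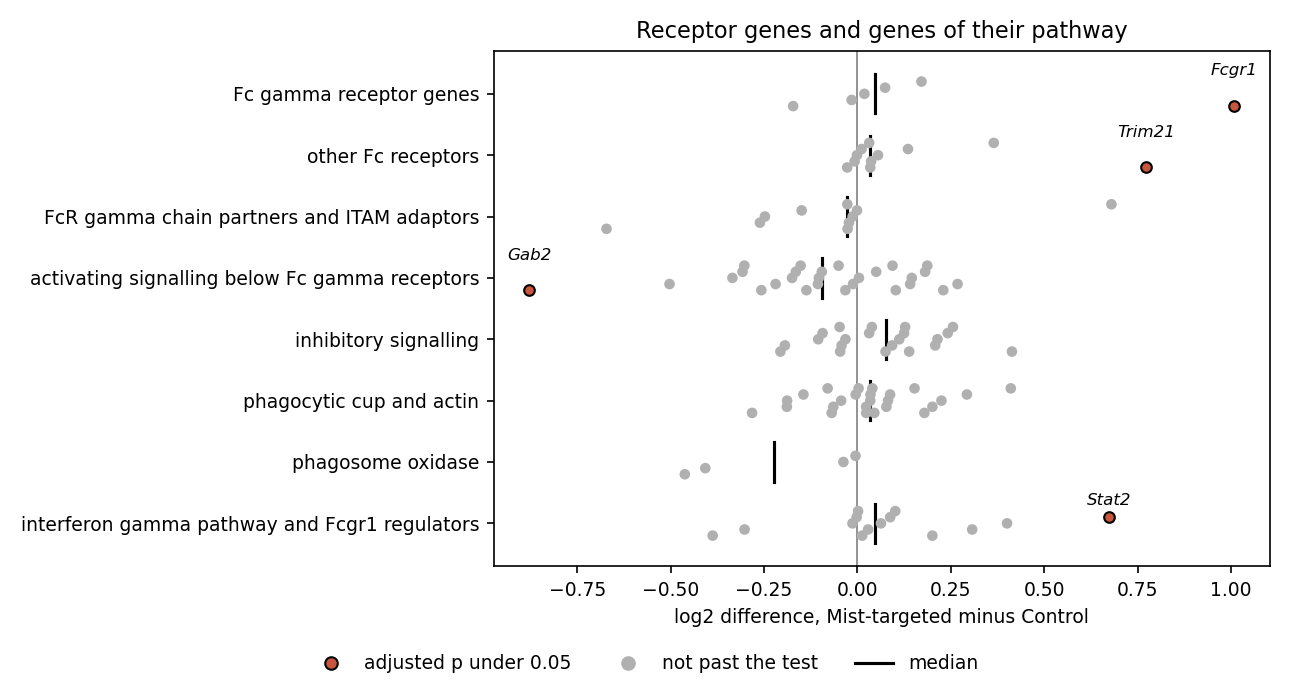
Log2 differences (Mist-targeted minus Control) of the 6 receptor genes and of the measured members of 7 pathway lists, 1 point per gene, with a vertical line at each list's median; filled red points passed limma's test over all probe sets. Fcgr1, Trim21 and Stat2 lie at 1.01, 0.77 and 0.67 and Gab2 at -0.88.

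Another list was made for the interferon gamma pathway and for factors acting on Fcgr1. Of its 14 measured of 15 genes Stat2 rose and 13 were not called, with a median of 0.05. Over all genes 0.415% were called (limma). An unadjusted p under 0.05 was reached by 3 of the 14, against 11.03% of all genes, and nothing is read from these counts. The signal behind the rise of Stat2 was not tested, so the rise is not read as one of the interferon gamma pathway. This gene encodes a transcription factor of type I interferon signalling. It went from 9.44, 9.39 and 9.49 on the Control arrays to 10.15, 10.09 and 10.11 on the Mist-targeted arrays, with no overlap and a difference of 0.67 ± 0.079 (SE; limma, adjusted p = 0.031). The next 4 genes are named after their values were seen. The interferon gamma receptor genes Ifngr1 and Ifngr2 differed by 0.06 and 0.09. Irf1 differed by 0.40 ± 0.090 (limma, adjusted p = 0.16) and Spi1, which encodes PU.1, by 0.01 ± 0.094. In the other direction Cebpb differed by -0.39 ± 0.086 (adjusted p = 0.16) and Irf8 by -0.30 ± 0.13 (adjusted p = 0.54), both also named after their values were seen.

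The label of the cells was checked against marker genes. Of 9 macrophage markers 8 read above the median of every array, and 0 were called (limma; 2 at an unadjusted p under 0.05, against 11.03% of all genes). Of 30 measured markers of 6 other kinds of cell (T and NK, B, neutrophil, mast and basophil, dendritic, fibroblast) 28 did not, and 0 of the 30 were called (limma; 1 at an unadjusted p under 0.05). The group means of all 30 lay between 3.58 and 5.07. The arrays had medians between 4.47 and 4.50 and correlated at 0.986 to 0.991, and no 2 arrays were copies of each other.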

How the data were processed

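The values deposited by the authors are log2 expression for 41345 probe sets on 6 arrays; per the submitters' processing notes RMA and Partek were used, with no version or role stated and array settings not given in the sources used here. In general RMA fits arrays to 1 common distribution, which reduces a change common to most transcripts. Values ranged from 2.50 to 14.1 and were used as deposited. The number of arrays limits the precision. Probe sets were named from the platform annotation: 23521 had 1 gene, 1814 several, and 16010 were not listed. A gene was read at its brightest probe set.

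Differences come from limma 3.58.1 in R 4.3.3 (lmFit, eBayes, two-sided, prior degrees of freedom 3.48), with Benjamini-Hochberg adjustment over all probe sets and calls at an adjusted p under 0.05; the fit was tested on simulated data. With 3 arrays a group an exact permutation p is at least 0.1, so none is given. Members and lists were chosen with earlier results of these data known. Besides the 6 members, named genes are called list members (up to 4 a list) or, without any, the 2 of smallest p, called neighbours, and the 5 nearest to Fcgr1; others are marked. Motifs were searched on both strands of RefSeq windows; 6 of 6 members matched. Protein features were planned and are not analysed here. Alternatives were a replicate block, eBayes with trend and robust, quantile normalization, median centring, no dimmest 40%, listed probe sets only, the mean of a gene's probe sets, and leaving out each array. Python 3.11.15, pandas 2.3.3 and matplotlib 3.10.9 made tables and plots.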

Additional observations from a re-analysis of the deposited data

How the results depend on the processing

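The difference of Fcgr1 was 0.97 to 1.05 with 1 array left out and 0.99 to 1.01 under the other alternatives. With the replicate number as a block it was 1.01 with an adjusted p of 0.12. Deviations of same-numbered arrays correlated at 0.20, 0.096 and 0.033, and those of arrays with other numbers at -0.15 to 0.060. Control replicates 1 and 2 correlated best with their own number, and Control replicate 3 with Mist-targeted replicate 2. The labels do not say whether the numbers pair the samples, and these values do not decide it. The reported fit leaves the numbers out. The block called 0 genes (limma; 2385 at an unadjusted p under 0.05) and 0 pathway genes (25). Genes called numbered 92 in the reported fit, 241 with trend and robust, 140 without the dimmest 40% of probe sets, 643 among listed probe sets only, and 1 to 34 with 1 array left out. Pathway genes called numbered 3, then 5 with trend and robust, 10 among listed probe sets, and 0 with any array left out (limma; 21 to 27 at an unadjusted p under 0.05). Those 10 were Trim21, Stat2, Clec4n, Dok2 and Irf1, which were higher, and Gab2, Clec4e, Cybb, Tec and Cebpb, which were lower. Tec is named after its value was seen. In that fit 2.9% of all genes were called. With trend and robust the calls split into 95 higher and 146 lower, and among listed probe sets into 243 and 400, against 47 and 45. Among listed probe sets Fcgr1 had an adjusted p of 0.00014, and 1 of the 6 members was called. Fcgr3 changed sign without Control replicate 2 (0.0043) or Mist-targeted replicate 1 (0.028) or 2 (0.049), with a range of -0.12 to 0.05, and Fcgrt without Control replicate 2 (-0.14) or Mist-targeted replicate 2 (-0.04), with a range of -0.14 to 0.13. Fcgr4, Fcgr2b and Fcer1g kept their direction and were called under none of the alternatives. The 5 changes against Fcgr2b moved by less than the SD pooled over both groups under all of them. Without Control replicate 3 that of Fcgr4 went from 0.34 to 0.23 (pooled SD 0.16) and that of Fcer1g from 0.25 to 0.18 (pooled SD 0.086), and with 1 array left out that of Fcgrt ranged from 0.067 to 0.33 (pooled SD 0.22). The values for the pathway genes under the alternatives were added after seeing the data.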
